A study of Mus musculus with 7 samples.

Results

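Basement membrane collagens and laminins were followed in the mouse uterus after a single dose of dihydrotestosterone (DHT), a potent androgen that aromatase cannot turn into estrogen. The 7 genes Col4a1, Col4a2, Col15a1, Col18a1, Lamb1, Lamc1 and Nid1 were chosen by name, and all 13 probe sets that carried 1 of these symbols on the Affymetrix U74Av2 array were taken, of 12422 probe sets that are not controls. The 7 arrays each held pooled uterine RNA from C57BL/6 females aged 10 to 11 weeks, killed 7 days after removal of the ovaries. Mice were taken 1, 3, 6, 12, 18 or 24 h after a subcutaneous injection of DHT (0.1 mg per mouse), or 24 h after one of vehicle. All groups, vehicle included, therefore lacked the ovaries, and each group was 1 pool on 1 array, with no replicates. The number of mice in a pool is not stated clearly. The design text gives other times than the array titles, and the titles were followed. Only the 24 h DHT pool was matched in time to the vehicle pool, so at 1 to 18 h DHT and the time since injection cannot be told apart.

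The basement membrane is a thin sheet of matrix under epithelia and around smooth muscle cells, fat cells, nerves and vessels. Type IV collagen, made of chains encoded by Col4a1 and Col4a2 in most tissues, forms one network, and laminins, trimers of an alpha, a beta and a gamma chain, form the other. Nidogens and perlecan link the networks, and the multiplexin collagens XV and XVIII sit at the outer face of the sheet and on vessels. In the uterus these sheets lie under the luminal and glandular epithelium, around each myometrial cell and around vessels. Stromal cells surround themselves with laminin and type IV collagen when they decidualize.

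Promoter sequences are shown first because the windows of the type IV collagen pair overlap. In RefSeq, Col15a1 and Col18a1 lie on chromosomes 4 and 10, and Lamb1, Lamc1 and Nid1 on chromosomes 12, 1 and 13. RefSeq gave a window for 6 of the 7 genes (assembly GRCm38.p6, 250 bases before to 50 after the annotated start), with 2 starts for Col18a1. The gene bounds reached further upstream than the start used for Col4a1 (11312889 beside 11312826), Col15a1 (47207655 beside 47208012) and Lamb1 (31265146 beside 31265293). What follows on spacing, GC content and motifs therefore holds for the starts used. Col4a1 and Col4a2 lie head to head on chromosome 8 and are read in opposite directions, from starts 21 bases apart. Each start (11312826 for Col4a1, 11312805 for Col4a2) lies downstream of the other. The bases shared below therefore all follow the start of Col4a1, of Col4a2 or of both. Whether these bases drive both Col4a1 and Col4a2 was not tested. Their windows at chr8:11312777-11313076 (minus strand) and chr8:11312555-11312854 (plus strand) share 78 bases, which are in capitals below, each read 5′ to 3′ on its own gene's strand.
Col4a1: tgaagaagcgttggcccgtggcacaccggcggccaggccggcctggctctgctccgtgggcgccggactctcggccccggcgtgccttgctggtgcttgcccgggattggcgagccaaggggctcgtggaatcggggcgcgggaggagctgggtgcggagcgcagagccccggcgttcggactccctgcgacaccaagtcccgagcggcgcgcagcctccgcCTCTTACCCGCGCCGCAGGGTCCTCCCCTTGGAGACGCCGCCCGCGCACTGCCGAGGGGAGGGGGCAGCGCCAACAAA
Col4a2: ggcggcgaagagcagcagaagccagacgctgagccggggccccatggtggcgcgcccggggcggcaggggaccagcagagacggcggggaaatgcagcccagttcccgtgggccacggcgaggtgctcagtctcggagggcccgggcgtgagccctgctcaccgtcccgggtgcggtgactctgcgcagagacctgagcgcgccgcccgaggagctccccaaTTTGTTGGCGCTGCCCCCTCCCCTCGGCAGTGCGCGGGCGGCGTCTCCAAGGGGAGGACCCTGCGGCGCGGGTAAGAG
The shared stretch held 1 copy of GGGCGG, the core of an Sp1 site, and 0 copies of CCAAT, counting both strands. The CCAAT of the Col4a2 window ends on the first shared base and so was not counted there. For contrast, the windows of the multiplexin genes follow, since these gave the highest ratios among the collagens of the 7 genes. They are Col15a1 at chr4:47207762-47208061 (plus strand) and the upstream and downstream starts of Col18a1 at chr10:77166481-77166780 and chr10:77113656-77113955 (minus strand). Capitals mark GGGCGG or its reverse complement.
Col15a1: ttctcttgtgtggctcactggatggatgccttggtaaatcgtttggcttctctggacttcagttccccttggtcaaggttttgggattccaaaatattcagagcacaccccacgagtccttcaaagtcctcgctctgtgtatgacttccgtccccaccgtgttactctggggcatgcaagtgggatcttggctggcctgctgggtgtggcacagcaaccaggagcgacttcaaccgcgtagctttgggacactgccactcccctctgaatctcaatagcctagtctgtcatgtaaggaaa
Col18a1 upstream start: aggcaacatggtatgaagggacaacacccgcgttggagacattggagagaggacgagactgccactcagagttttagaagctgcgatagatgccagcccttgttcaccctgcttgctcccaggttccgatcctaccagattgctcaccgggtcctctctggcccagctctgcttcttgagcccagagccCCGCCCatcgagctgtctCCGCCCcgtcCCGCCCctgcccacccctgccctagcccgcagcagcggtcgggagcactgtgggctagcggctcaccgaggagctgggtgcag
Col18a1 downstream start: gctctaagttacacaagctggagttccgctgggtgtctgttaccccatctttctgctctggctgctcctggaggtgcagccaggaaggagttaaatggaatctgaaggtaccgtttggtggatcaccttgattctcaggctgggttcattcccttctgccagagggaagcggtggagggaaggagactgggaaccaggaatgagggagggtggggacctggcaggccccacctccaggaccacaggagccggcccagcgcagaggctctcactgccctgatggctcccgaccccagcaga
The upstream Col18a1 window held 3 copies, all on the reverse strand, while the downstream window and that of Col15a1 held none. GC content was 73.7 percent for Col4a2 and 52.3 percent for Col15a1, beside a median of 53.0 percent over 32544 windows. Over the 7 windows of the 6 genes, GGGCGG was present in 5 (35.9 percent of all windows) and CCAAT in 5 (37.4 percent of all windows). The only GGGCGG of the Col4a1 window is the shared copy, which lies in the Col4a2 window too. TATAAA was present in 0 (13.6 percent of all windows). AGAACA, a single arm of the site bound by androgen and glucocorticoid receptors, was also present in 0 (18.9 percent of all windows). Motifs were searched on both strands, and a match or its absence describes these letters only.

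The deposited values were MAS5 signal intensities, which the authors had scaled so that the arrays had medians of 227.4 to 237.0. A floor of 145.9, which is the 40th percentile over all arrays, replaced any lower signal before log2 ratios were taken. The 8421 probe sets whose mean log2 signal exceeded the floor after this step were tested. A single array above the floor was therefore enough to pass. Among the tested were 11 of the 13 probe sets studied here. The other 2, Col18a1 101880_at (19.7 to 94.2) and Lamc1 102404_at (29.6 to 94.1), were under the floor on all 7 arrays and gave no ratio. By 1 count the 3 h array stood furthest apart in the series, with 12 probe sets that differed at least 2-fold from each of the 6 others, against 4 to 7 on the others. Against vehicle alone, more probe sets were at least 1.5-fold away at 12 h (719 higher, 621 lower) than at 3 h (427 higher, 424 lower). The ratio of 3 prime to 5 prime control signals, a measure of RNA quality, lay between 1.03 and 1.19 for actin and between 0.83 and 0.89 for Gapdh. The pools expressed markers of the cells a uterus holds. Of the marker genes on the array, 11 of 11 epithelial, 8 of 8 smooth muscle, 11 of 11 endothelial and 7 of 8 stromal genes were above the filter, the exception being the Vim probe set. Passing did not require signal on every array, and Icam2 of the endothelial list was under the floor on 5 of the 7.

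Most probe sets of the 7 genes lay above vehicle from 6 h on, mostly by small amounts, with the highest ratio for Col15a1 (2.07-fold at 18 h). Most lay below vehicle at 3 h, where Lamc1 had the lowest ratio (0.49-fold). A probe set was called at a single time when it was at least 1.5-fold from vehicle. Of the 11 probe sets, 1 was called higher at 1 h (3.24 percent of all tested probe sets), 0 at 3 h (5.07 percent), 1 at 6 h (6.6 percent), 2 at 12 h (8.54 percent), 2 at 18 h (5.76 percent) and 5 at 24 h (5.08 percent). The 5 at 24 h stood for Col15a1, Lamb1, Nid1 and Col18a1, the last with 2 probe sets. In the other direction Lamc1 was called lower at 3 h (5.04 percent of all), and 0 were called at 1 h (3.15 percent), 6 h (6.79 percent), 12 h (7.37 percent), 18 h (5.65 percent) and 24 h (5.57 percent). At 24 h, the time matched to vehicle, all 11 lay above vehicle, though by as little as 0.002 on the log2 scale. Of all tested probe sets 50.6 percent did. The 2 probe sets left out under the floor read lower than vehicle there. Col18a1 101880_at had 42.8 against 94.2, and Lamc1 102404_at had 29.6 against 94.1. Above vehicle by any amount were 6 of 11 at 1 h (50 percent of all), 2 at 3 h (48.1 percent), 8 at 6 h (47.8 percent), 8 at 12 h (49.7 percent) and 10 at 18 h (48.3 percent). The 11 probe sets are not independent, as 4 of them belong to Col18a1 and 2 to Lamb1.

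**Figure D1:**
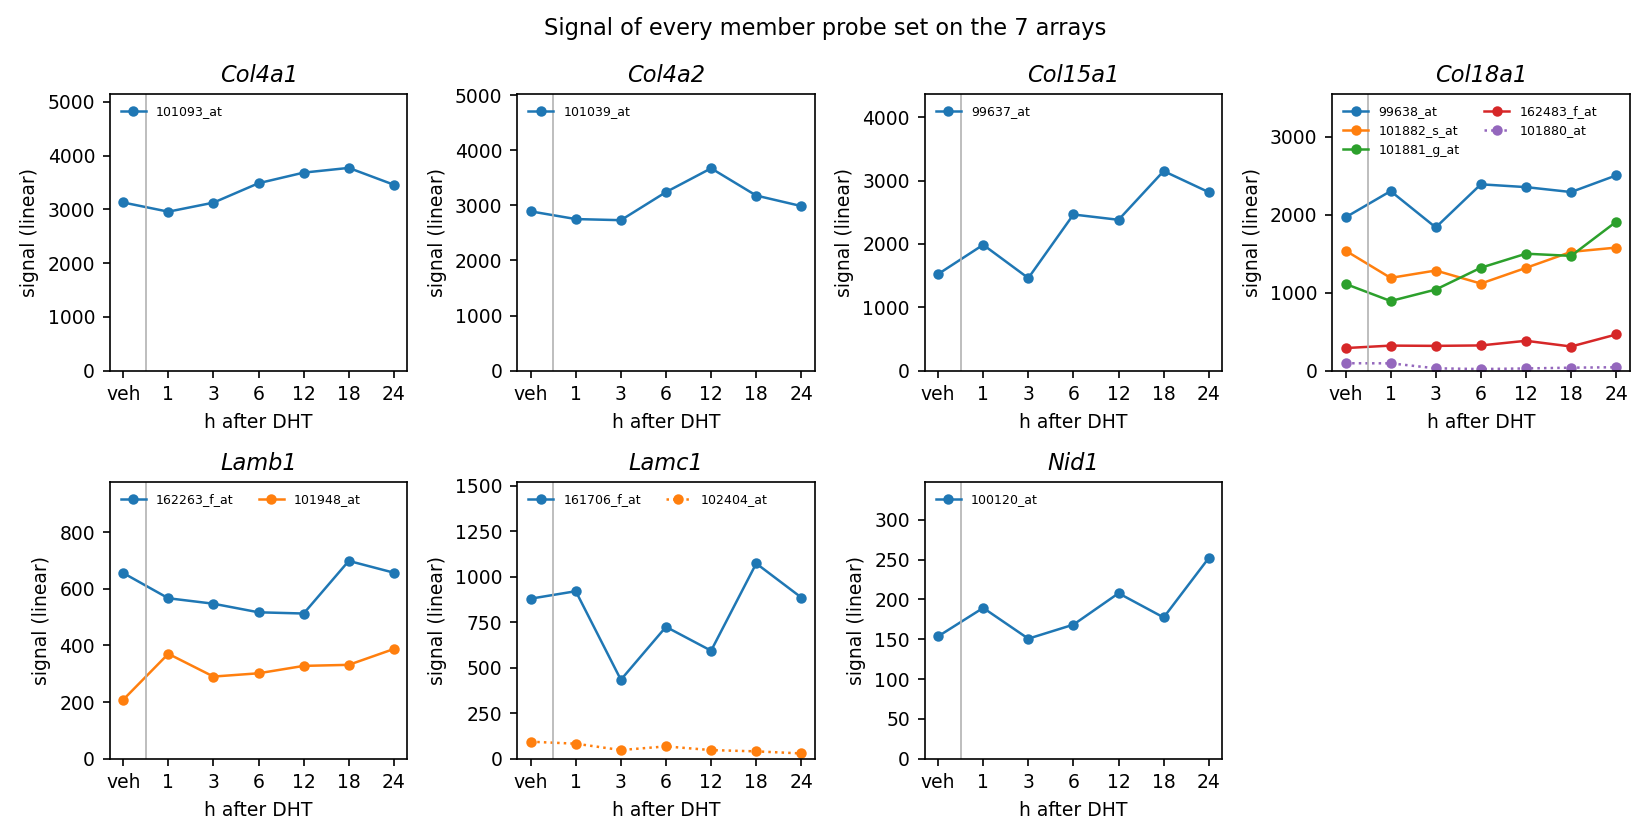
Signal on a linear axis from 0 for all 13 probe sets, 1 panel a gene, with the vehicle array left of the grey line and the DHT arrays in time order (h) right of it. Points are single arrays without replicates, and dotted lines are the 2 probe sets under the floor. Col15a1 reached 3149.8 at 18 h, against 1522.9 on vehicle, while the type IV collagen genes stayed between 2731.4 and 3770.1.

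The chains of the main network, type IV collagen, differed from vehicle by small amounts, with the same sign at each time. Col4a1, the alpha-1 chain (probe set 101093_at), had a signal of 3126.8 on vehicle and of 2955.7, 3123.7, 3485.3, 3682.4, 3770.1 and 3456.3 along the DHT course (1, 3, 6, 12, 18 and 24 h). Col4a2, the alpha-2 chain that joins it in the same trimer (101039_at), had 2891.9 on vehicle and 2751.7, 2731.4, 3241.7, 3673.6, 3178.7 and 2987.3 in the same order of times. Both were at or below vehicle at 1 and 3 h and above it from 6 h on. The highest ratio of Col4a1 was 1.21-fold at 18 h and that of Col4a2 was 1.27-fold at 12 h, so neither reached 1.5-fold at any time. Over all 7 arrays the log2 signals spanned 0.35 for Col4a1 and 0.43 for Col4a2. As a description, Pearson's correlation between them was 0.84 and Spearman's was 0.86 over the 7 arrays, which are single pools of 1 time course. From 12 to 18 h Col4a1 rose while Col4a2 fell. By each measure taken alone, such a likeness was not particular to this pair. Pearson's correlation was 0.92 between Nid1 and Col18a1 162483_f_at (Spearman's 0.75). It was 0.87 between Col15a1 and Col18a1 99638_at (Spearman's 0.64). Spearman's was 0.86 between Nid1 and Lamb1 101948_at (Pearson's 0.75). At 24 h the DHT signal was 1.11-fold the vehicle signal for Col4a1 and 1.03-fold for Col4a2.

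Col15a1 showed the highest ratio to vehicle of all 11 probe sets. It encodes collagen XV, a proteoglycan core protein that bridges the basement membrane to the fibres beyond it. Its signal (99637_at) was 1522.9 on vehicle and 1985.7, 1460.2, 2464.1, 2380.2, 3149.8 and 2816.3 along the DHT course. The 4 arrays from 6 h on were all above the 3 others. In time order those 4 were 1.62, 1.56, 2.07 and 1.85-fold the vehicle signal. Being at least 1.5-fold higher at 2 or more times was shared by 8.84 percent of all tested probe sets. Among the 11, only Col15a1 and the Lamb1 probe set 101948_at met it.

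Col18a1, whose product collagen XVIII is cut to give the vessel inhibitor endostatin, was read by 4 probe sets above the filter, and these differed in course. Probe set 101881_g_at had 1112.6 on vehicle and 892.9, 1040.2, 1320.5, 1500.5, 1472.6 and 1911.0 along the DHT course. Its 3 late (12 to 24 h) signals all exceeded its 3 early (1 to 6 h) ones, and at 24 h it was 1.72-fold the vehicle signal. Probe set 101882_s_at had 1540.2 on vehicle and 1189.9, 1284.8, 1117.0, 1318.6, 1524.2 and 1578.8 along the course. It likewise had all late signals above all early ones, but it was below vehicle at 5 of the 6 times. The brightest, 99638_at, had its lowest signal of 1837.8 at 3 h and its highest of 2505.9 at 24 h, against 1967.1 on vehicle, a span of 0.45 on the log2 scale. The dimmest, 162483_f_at, was lowest on vehicle, and its 24 h signal of 463.4 was 1.60-fold the 289.0 on vehicle. All 4 were highest at 24 h. Which of the Col18a1 starts or transcripts each probe set reads is not given in the sources used here, and probe sets ending in _s, _f or _g may share probes with other transcripts.

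The laminin chains gave no common direction against vehicle. Lamb1, the beta-1 chain of many laminins, was read by a pair of probe sets that disagreed. Probe set 101948_at had 208.6 on vehicle and 370.6, 290.3, 301.9, 328.0, 331.7 and 387.7 along the DHT course, so vehicle was its lowest array. Signals above vehicle on all 6 DHT arrays occurred in 14.9 percent of all tested probe sets and in 2 of the 11, the other being Col18a1 162483_f_at. The brighter 162263_f_at had 655.7 on vehicle and 566.7, 547.4, 517.1, 512.8, 698.5 and 656.8 in the same order, lower than vehicle at 1 to 12 h. The ratios of the first at 1 h (1.78-fold) and 24 h (1.86-fold) stood beside 0.86-fold and 1.00-fold for the second. A direction for Lamb1 against vehicle was therefore not settled by these probe sets.

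Lamc1, the gamma-1 chain that nidogen binds, had signals (161706_f_at) of 879.4 on vehicle and of 920.4, 434.1, 724.8, 593.7, 1072.8 and 885.7 along the DHT course. Its 3 h signal was 0.49-fold the vehicle signal and the lowest of the 7. That array stood furthest apart by the 2-fold count above, and its part in this value was not tested. At 24 h DHT and vehicle differed by 0.01 on the log2 scale. The other Lamc1 probe set, 102404_at, had 94.1 on vehicle and 29.6 at 24 h, and was under the floor on all 7 arrays. Its late signals all lay below its early ones, while the late-minus-early difference of 161706_f_at was positive (0.32). Nid1, which encodes nidogen-1, the link between laminin and type IV collagen, was close to the floor throughout. Its signals (100120_at) were 153.6 on vehicle and 189.3, 150.7, 168.3, 207.7, 177.3 and 251.9 along the course. The 24 h value was 1.64-fold the vehicle value, with no other time at 1.5-fold.

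**Figure D2:**
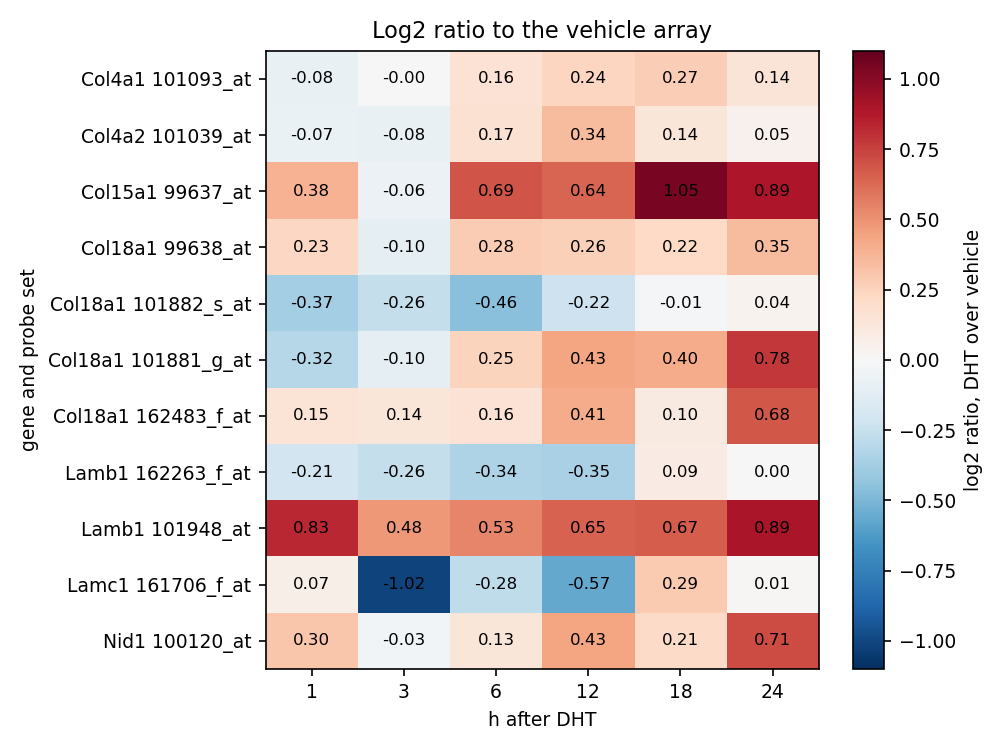
Log2 ratio of each DHT array to the vehicle array for the 11 probe sets above the filter (rows, gene and probe set) at 1 to 24 h (columns, h after DHT). Red is higher and blue lower than vehicle, with the ratio printed in each cell. The range runs from -1.02 for Lamc1 at 3 h to 1.05 for Col15a1 at 18 h, and the 24 h column has no negative cell.

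For a comparison with a measure of spread, the DHT arrays were joined into a late phase (12, 18 and 24 h) and an early phase (1, 3 and 6 h), 3 arrays each. They were compared with each other and with the lone vehicle array in limma across 8421 probe sets. The spread here is that between times of a phase, and the lone vehicle pool was taken to have the same variance. Late minus early, all 11 probe sets had a positive difference, with a median of 0.25 on the log2 scale, while 48.5 percent of all tested probe sets were above 0 and their median was -0.002. The sizes were modest. Col18a1 101881_g_at averaged 1628.0 late and 1084.5 early (log2 difference 0.60 ± 0.18 SE, n = 3 arrays each, limma adjusted p = 0.380). Col15a1 averaged 2782.1 late and 1970.0 early (0.52 ± 0.21 SE, limma adjusted p = 0.490). Col4a1 averaged 3636.3 late and 3188.2 early (0.19 ± 0.08 SE, limma adjusted p = 0.509), and Col4a2 averaged 3279.9 late and 2908.3 early (0.17 ± 0.11 SE, limma adjusted p = 0.657). The other 7 probe sets differed by 0.13 to 0.32. In limma, 0 of the 11 passed an adjusted p of 0.05, and 0 percent of all tested probe sets did. At an unadjusted p under 0.05, 2 were higher, both of Col18a1 (101881_g_at and 101882_s_at), beside 5.76 percent of all, and 0 were lower, beside 4.49 percent of all. The same 2 were the only ones whose late signals all lay above the early ones, which held for 8.8 percent of all, and 0 had all late signals below (7.16 percent of all). Alternatives chosen after seeing the data left out 1 early array. Without the 6 h array 5 of the 11 had all late signals above the early ones, beside 17.2 percent of all tested probe sets. Without the 3 h array 2 of the 11 did, beside 12.2 percent of all. Both shares of all exceed the 8.8 percent with 3 early arrays. Several differences rested on single arrays. Without the 3 h array they became 0.32 for Col15a1, 0.02 for Lamc1, 0.02 for Col18a1 99638_at and 0.06 for Lamb1 101948_at, beside 0.52, 0.32, 0.14 and 0.13 with it. Leaving out each array in turn, Col4a1 ranged between 0.14 and 0.26, Col4a2 between 0.09 (without 12 h) and 0.25, and Col18a1 101881_g_at between 0.46 and 0.75.

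**Figure D3:**
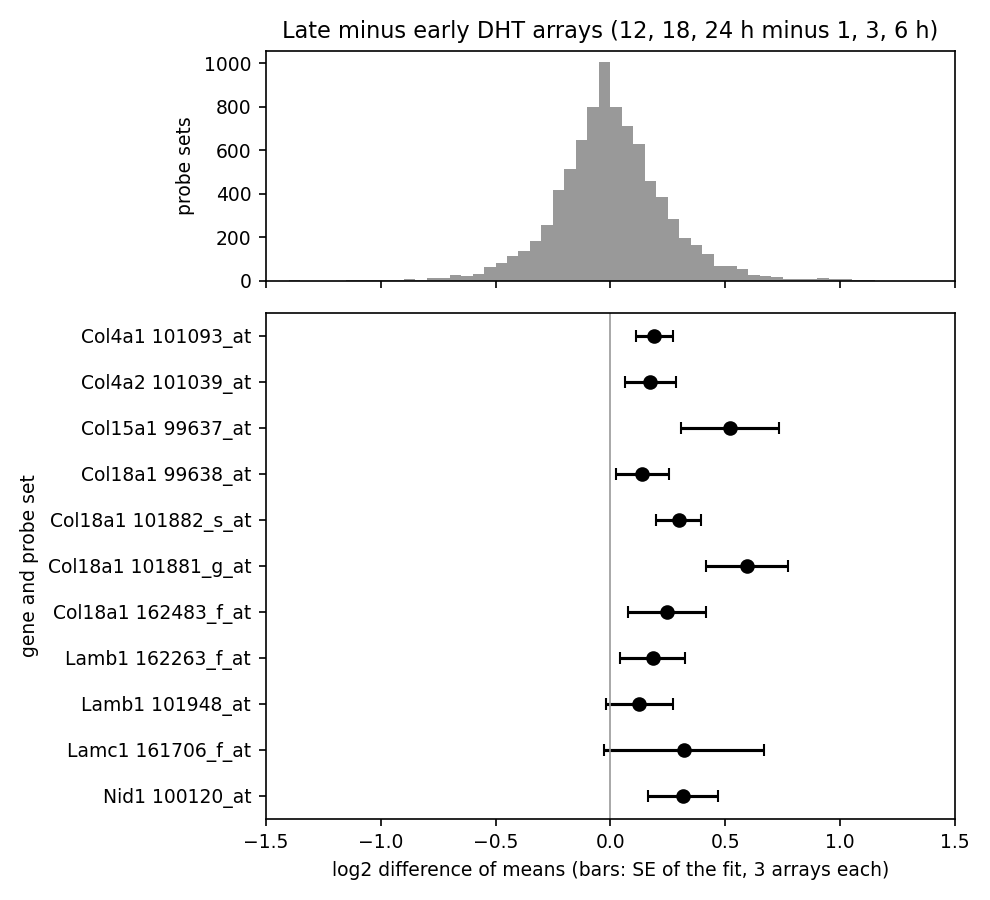
Lower panel, log2 difference between the means of the late (12, 18 and 24 h) and early (1, 3 and 6 h) DHT arrays for the 11 probe sets, with bars of 1 SE from limma. Upper panel, number of probe sets at each value of the same difference among all 8421 tested. All 11 points lie above 0, between 0.13 and 0.60, and the bars of Lamc1 and of Lamb1 101948_at cross 0.

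Against vehicle the late mean was higher for 8 of the 11 probe sets and the early mean for 7, while 49.9 and 49.5 percent of all tested probe sets were above 0. The late-minus-vehicle difference was 0.86 ± 0.30 SE for Col15a1 (3 arrays against 1, limma adjusted p = 0.371) and 0.74 ± 0.21 SE for Lamb1 101948_at (limma adjusted p = 0.294). These were the 2 at an unadjusted p under 0.05, beside 5.53 percent of all tested probe sets higher in that way, and 0 were lower (6.19 percent of all). Early minus vehicle, Lamb1 101948_at was 0.61 ± 0.21 SE above (limma adjusted p = 0.696), beside 2.49 percent of all at an unadjusted p under 0.05, and Col18a1 101882_s_at was -0.37 ± 0.14 SE (limma adjusted p = 0.765), beside 3.84 percent lower. Col4a1 and Col4a2 differed from vehicle by 0.03 ± 0.12 SE and 0.00 ± 0.16 SE in the early phase (limma adjusted p = 0.996 and 1). None of the 11 passed the adjusted threshold in limma in either contrast, in which 0.309 percent (late) and 0.273 percent (early) of all tested probe sets did. All of those calls were lower than vehicle, 26 late and 23 early, and in 16 of each every DHT array was at the floor. Those 16 passed the filter through the vehicle array alone. The late count became 0 without the 12 h or the 18 h array and 73 without the 3 h array, and the early count became 55 without the 3 h array and 8 without the 6 h array. With 4 residual degrees of freedom the fit gives wide intervals, and a value that misses the threshold here does not show that the gene stayed the same.

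Among 24 other basement membrane components, 20 were on the array and 18 above the filter, each taken at its brightest probe set. Their median ratio to vehicle lay between -0.10 and 0.06 on the log2 scale at all 6 times. The genes named by rule, at least 1.5-fold from vehicle at 2 or more times, were Sparc, Col4a5 and Npnt. Sparc, a matricellular protein that binds type IV collagen, had 1512.1 on vehicle, 1624.2, 1546.2 and 2148.2 in the early phase and 3273.9, 3187.8 and 3578.6 in the late phase. All late signals exceeded all early ones, with a late-minus-early difference of 0.93 ± 0.14 SE (limma adjusted p = 0.212). Col4a5, a type IV chain of more restricted networks that include smooth muscle, was at 332.8 on vehicle, at 348.8 to 435.0 early and at 440.4, 584.5 and 628.7 late. Its late-minus-early difference was 0.52 ± 0.18 SE (limma adjusted p = 0.428). Npnt, an integrin ligand of epithelial basement membranes, was 0.62 and 0.89 above vehicle on the log2 scale at 18 and 24 h, with a vehicle signal of 150.4 near the floor.

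The partner chains of the laminins, chosen after their values were seen, had ratios of both signs. Lama3 and Lamb3, chains of the laminin that anchors epithelia at hemidesmosomes, had log2 ratios to vehicle between -0.57 and -0.36, and between -0.73 and -0.22, from 6 h on. Their late-minus-early differences were -0.29 ± 0.16 SE and -0.40 ± 0.17 SE (limma adjusted p = 0.584 and 0.496). Lama4 and Lama5, the alpha chains of vessel and epithelial laminins that pair with beta-1 and gamma-1, stayed within -0.40 to 0.11 and -0.11 to 0.10 of vehicle. Lama2, the alpha chain of muscle laminin, was 0.53 above vehicle at 24 h. Lamb2, the beta chain that takes the place of beta-1 in mature muscle and vessels, lay between -0.07 and 0.40. Hspg2, encoding perlecan, was -0.39, -0.38 and -0.47 at 12, 18 and 24 h. Lama1, the alpha chain of embryonic laminin, had 32.0 to 140.1 on the DHT arrays, all 6 under the floor, and 192.9 on the vehicle array, near it. Its late-minus-vehicle difference of -0.40 ± 0.04 SE (limma adjusted p = 0.0386, the only gene of these lists under 0.05) is therefore a bound, with a spread made by the floor. The call was kept in 3 of 11 alternatives, where limma's adjusted p ranged from 1.99e-10 to 0.533. It was lost with no variance trend (0.234), with a floor at the 20th percentile (0.533) and without the 6, 12, 18 or 24 h array (0.0613 to 0.0997), among others.

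Genes that fold, modify and anchor these proteins were measured beside them. Of 10 collagen maturation genes above the filter, Serpinh1, P4ha1, P4ha2 and P4hb met the rule. Serpinh1, the collagen chaperone HSP47, had 5056.9 on vehicle, 5030.7, 5629.4 and 8219.6 early and 9940.8, 8717.4 and 8465.6 late, with late above early by 0.55 ± 0.20 SE (limma adjusted p = 0.438). P4ha1, a catalytic subunit of prolyl 4-hydroxylase, was highest at 6 h (586.7, against 253.9 on vehicle), and P4ha2, another such subunit, was 0.81 and 0.90 above vehicle on the log2 scale at 6 and 12 h by its brighter probe set. Its dimmer one lay between -0.28 and 0.29. P4hb, the other subunit of that enzyme, was -0.75 and -0.98 at 6 and 12 h on its brighter probe set 161926_r_at. That probe set was at -0.02 at 18 h and -0.58 at 24 h. Its dimmer probe set was under the floor on vehicle and up to 0.53 above it at 6 h. Among 12 receptors only Sdc4, a heparan sulfate proteoglycan of focal adhesions, met the rule, with 4209.6 on vehicle and 4157.1, 4503.9, 1501.9, 1071.0, 3840.4 and 1703.3 along the course. Its 18 h value stood apart from the neighbouring times. The integrin subunit Itgb1, shared by most laminin and collagen receptors and chosen after its values were seen, stayed within -0.20 to 0.13 of vehicle. Of 8 proteases and inhibitors above the filter Timp1, an inhibitor of matrix metalloproteinases, met the rule at 0.94, 0.63 and 0.73 in the late phase.

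**Figure D4:**
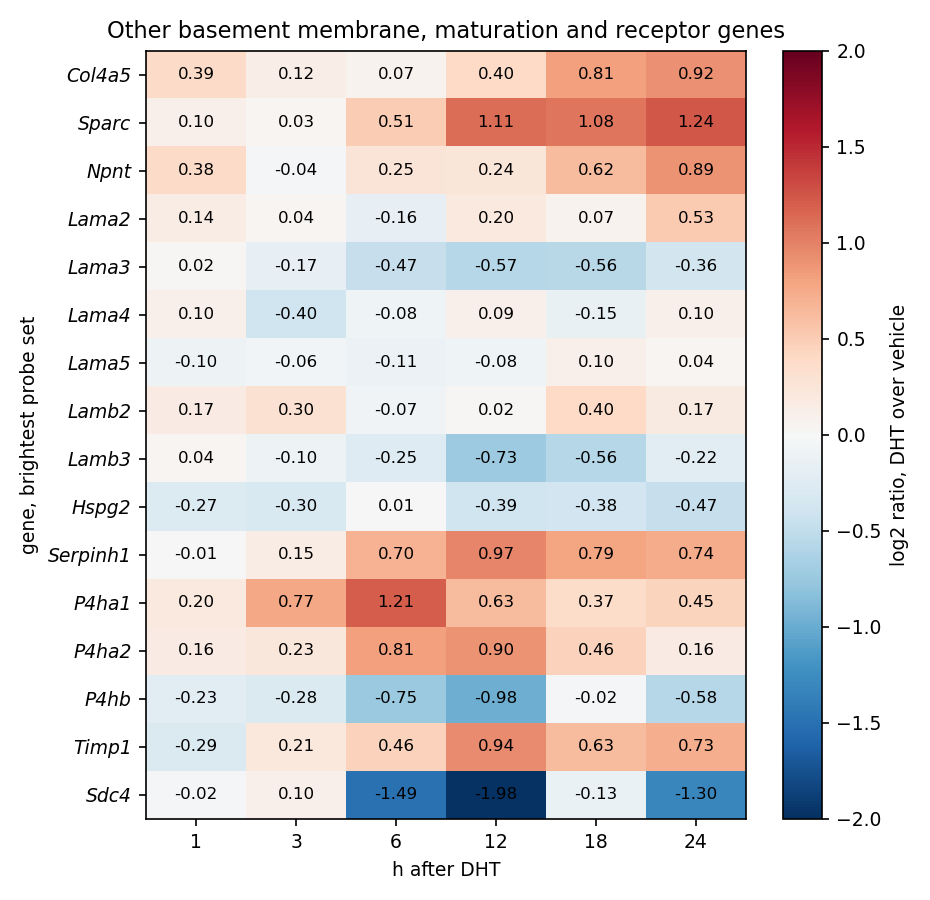
Log2 ratio to vehicle at 1 to 24 h after DHT (columns, h) for 16 other genes of the basement membrane and of collagen maturation, binding and turnover (rows, brightest probe set). Red is higher and blue lower than the vehicle array, single arrays throughout. Sparc reached 1.24 at 24 h, Serpinh1 0.97 at 12 h and Sdc4 -1.98 at 12 h, while Lama3 and Lamb3 were below 0 from 3 h on.

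Set beside the fibrillar and type VI collagens of the surrounding stroma, the basement membrane genes had a lower median ratio from 3 h on and a higher one at 1 h. Taking the brightest probe set of each gene, the median log2 ratio of the 7 genes was 0.07, -0.08, 0.16, 0.26, 0.22 and 0.15 along the DHT course. The median of 8 fibrillar and type VI genes was -0.10, 0.17, 0.44, 0.75, 0.80 and 0.76, and that of all tested probe sets was 0.00 at each time. The difference between the lists was not tested. Col1a1, the main chain of type I collagen, reached 1.37 at 18 h and Col3a1, the chain of type III collagen, 1.36 at 24 h. Late minus early, the median difference was 0.19 for the 7 genes (7 of 7 above 0) and 0.65 for the fibrillar and type VI genes (8 of 8 above 0). In limma 0 of either passed the adjusted threshold.

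Markers of the cells that make basement membrane were followed in the same pools. In bulk tissue a change in the number of cells of a type and a change in RNA per cell cannot be told apart. Smooth muscle markers, 8 of 8 genes above the filter, had a summed signal of 37680 to 51518 on the late arrays, 28422 to 29134 on the early arrays and 31043 on vehicle. Their phases did not overlap, and Actg2, the enteric actin, reached 1.54 on the log2 scale at 24 h. The summed signal of the 7 basement membrane genes was 13406 to 14339 late, 10285 to 12993 early and 11197 on vehicle. For each of the 7 genes taken alone the late and early signals overlapped. Col15a1 averaged 2782.1 late and 1970.0 early. The part of smooth muscle RNA in the shift of the sum was not tested. Endothelial markers, 11 of 11 above the filter, summed to 6445 to 7150 late, 6572 to 7197 early and 6688 on vehicle. Epithelial markers summed to 12951 to 15402 late, 12911 to 14585 early and 13855 on vehicle. Stromal markers summed to 32895 to 44087 late, 35740 to 44980 early and 42767 on vehicle. The sums of those 3 lists overlapped between the phases. Dcn alone gave 19861.7 of the stromal sum on vehicle. Gene by gene, late minus early, 8 of 8 smooth muscle genes were above 0, with a median of 0.59. Of 7 stromal genes above the filter 1 was above 0, with a median of -0.20. The same held for 4 of 11 endothelial genes (median -0.07) and 4 of 11 epithelial genes (median -0.01). Pericyte markers, 5 of 5 above the filter, summed to 5684 to 7508 late, 6454 to 7245 early and 7250 on vehicle, of which Anpep gave 4795.3. Late minus early, 1 of these 5 pericyte markers was above 0, with a median of -0.28. Among them Kcnj8, a potassium channel subunit, was at -1.53 at 18 h, while Rgs5 lay between -0.26 and 0.32. Adipocyte markers, 5 of 5 above the filter, summed to 2932 to 3595 late, against 3668 to 4712 early and 4209 on vehicle. Lep, the leptin gene on that list, was 1.07 above vehicle on the log2 scale at 24 h.

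**Figure D5:**
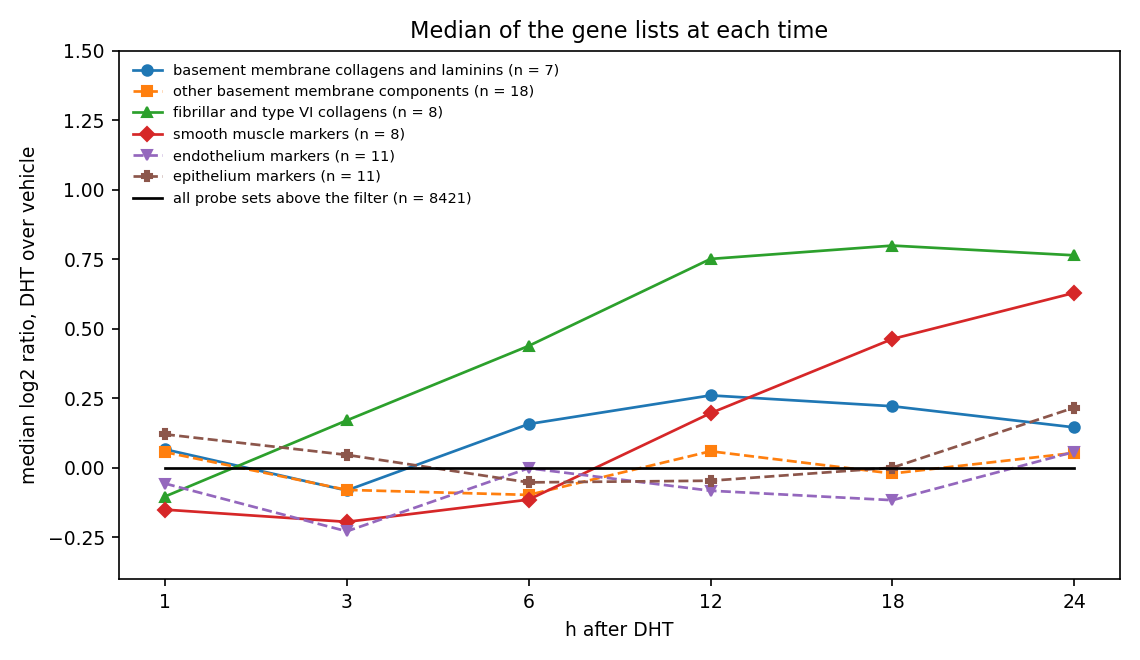
Median log2 ratio to vehicle of each gene list (vertical axis) at 1 to 24 h after DHT (horizontal axis, not to scale in time), with the number of genes above the filter in the key. The 7 basement membrane genes reached 0.26 at 12 h, the fibrillar and type VI collagens 0.80 at 18 h and the smooth muscle markers 0.63 at 24 h. Endothelium and epithelium markers stayed between -0.23 and 0.22.

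The genes whose course was most like that of Col4a1 were found by Pearson's r over the 7 arrays among 753 genes that spanned at least 1 on the log2 scale, members left out. The first 6 were Mad2l1 (r = 0.98), a spindle checkpoint protein, Kat2a (0.97), a histone acetyltransferase, Map3k6 (0.96), a stress kinase, Sh3bp1 (0.96), Cavin3 (0.96), a caveolar coat protein, and Col6a2 (0.96), a type VI collagen chain. Col6a2 had 4539.4 on vehicle and 4015.9, 5799.6, 7737.4, 8901.5, 8639.7 and 7766.0 along the DHT course. Mad2l1 had log2 ratios to vehicle of -0.07, 0.06, 0.67, 1.03, 1.06 and 0.50 in the same order. Both were highest at 12 or 18 h, which their choice by correlation with Col4a1 favoured. Col4a1 itself spanned 0.35 on the log2 scale, less than the span of 1 asked of these genes. The ratios of Map3k6 are bounds, since its vehicle, 1 h and 3 h signals lay under the floor, and Kat2a was at the floor at 1 and 3 h. The correlations describe 7 arrays that share 1 series of pools.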

How the data were processed

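The deposited table gave 1 signal intensity per probe set and array on a linear scale, made by the authors with MAS5 per the submitters' processing notes, whose version is not given in the sources used here. The values show that the authors had scaled the arrays, since the mean over the central probe sets was 500.2 on each, and this scaling was kept. Gene symbols came from the platform's annotation. Of 12422 probe sets that are not controls 10833 named 1 gene, 396 several and 1193 none. Pooled RNA from 1 pool per group means that p-values measure the spread between these arrays only, and the number of arrays limits the precision.

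Signals were raised to the floor of 145.9, log2 was taken and probe sets with a mean above the floor were tested with limma 3.58.1 in R 4.3.3 (variance trend, phase means, 4 residual degrees of freedom, prior 1.69, two-sided, Benjamini-Hochberg over 8421 probe sets, threshold 0.05). The script was tested on simulated data. Named genes were all probe sets of the 7 genes, list genes at least 1.5-fold from vehicle at 2 or more times, or for other lists 2-fold, and the 6 genes most like Col4a1. The genes, lists and tests were chosen with earlier results of these data known. Promoters are RefSeq sequence of GRCm38.p6, whose coordinates are not those of the array, and protein sequences were not analysed here. Alternatives changed the floor, pseudocount (50), scaling, filter, variance trend, fold threshold and the arrays used.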

Additional observations from a re-analysis of the deposited data

How the results depend on the processing

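From early to late, the sign of all 142 values of the 11 probe sets under 13 alternatives was positive, but sizes moved: leaving out arrays in turn gave 0.017 to 0.559 for Lamc1, 0.022 to 0.212 for Col18a1 99638_at, 0.048 to 0.234 for Lamb1 101948_at, 0.186 to 0.439 for Nid1 and 0.321 to 0.699 for Col15a1. None passed the threshold in limma (lowest adjusted p per alternative 0.209 to 0.621). Nor did any pass against vehicle. Nid1 gave no value with a floor at the 60th percentile. Leaving out arrays in turn, signs turned for 6 differences: in the early phase Col4a1 (-0.041 to 0.078), Col4a2 (-0.077 to 0.047) and Col18a1 101881_g_at (-0.207 to 0.075), in the late phase Col18a1 101882_s_at (-0.12 to 0.01), Lamc1 161706_f_at (-0.28 to 0.15) and Lamb1 162263_f_at (-0.176 to 0.047). All were within 1 SE of 0 in the full fit.

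Pairs of probe set and time at least 1.5-fold higher numbered 11. They numbered 5 under the 60th percentile floor, 1 at 2-fold, 6 against the mean of the 1 and 3 h arrays and 5 with the brightest probe set of each gene alone, the last chosen after seeing the data. Lower pairs numbered 1, but 10 with a floor at the 20th percentile, where the dim probe sets entered, 2 after quantile normalization and 0 against the 1 and 3 h arrays. Probe sets with all late above all early signals numbered 2 (8.8 percent of all tested). They numbered 2 without the 3 h array (12.2 percent of all) and 5 without the 6 h array (17.2 percent of all). Both alternatives were chosen after seeing the data. With a floor at the 20th percentile 1 probe set, Lamc1 102404_at, had all late signals lower.

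Over all probe sets the calls moved more. Late against vehicle, 26 became 42 under the 60th percentile floor, 2 with a pseudocount, 15 after quantile normalization, 137 without the filter, 0 without the variance trend and 0 (without 12 or 18 h) to 73 (without 3 h) leaving out arrays in turn. Early against vehicle, 23 became 0, 14, 121 and 0 with the pseudocount, quantile normalization, no filter and no trend, and 8 (without 6 h) to 55 (without 3 h) leaving out arrays. Late against early, 0 became 10 with the pseudocount and 0 to 1 (without 6 h) leaving out arrays. The cause was not tested. No paired analysis was possible because each group holds 1 array.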
